A study of Homo sapiens with 4 samples.

Results

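RNA polymerases I, II and III are the enzymes that transcribe the nuclear genome, and RNA levels of 32 genes encoding their subunits, with a pair of Pol I factors, were compared between cells with and without GNE-987. The 32 genes were chosen by symbol and found by Ensembl identifier among the 58735 genes of an RNA-seq table, and all 32 were present. They comprised 6 subunits private to Pol I, 7 private to Pol II, 10 private to Pol III, 2 shared by Pol I and Pol III, 5 shared by all of the enzymes, and the Pol I factors RRN3 and UBTF. There were 4 libraries from cells labelled NB4, a human acute promyelocytic leukemia cell line. The control group, labelled as having no treatment, had 2 libraries, and the GNE-987-treated group, given 25 nM for 24 h, had 2 libraries. GNE-987 is a bifunctional molecule that recruits BET proteins to a ubiquitin ligase for degradation. The labels name no vehicle and do not say whether replicates came from separate cultures, so the P values measure only the spread between these libraries, which may be technical.

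In eukaryotic cells Pol I makes the large ribosomal RNA precursor in the nucleolus, Pol II makes messenger RNAs and many noncoding RNAs, and Pol III makes 5S ribosomal RNA, transfer RNAs and other short RNAs. Each enzyme is built round a pair of large catalytic subunits. Some small subunits are used by all of the enzymes, others by Pol I and Pol III, and the rest belong to a single enzyme. RRN3 brings Pol I to the ribosomal DNA promoter, and UBTF is the HMG-box protein that marks active ribosomal DNA.

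FPKM, the fragments of a gene per kilobase of length, scaled to the sequencing of each library by the authors, was the deposited unit. Reads recovered from the steps between FPKM values were 17266171 and 17052229 on genes in the control group and 11175122 and 11637124 in the GNE-987-treated group, so the treated libraries were the shallower pair. The scaling in the deposited table was proportional to median-ratio factors of the recovered reads over genes above 0 in every library. Scaling to total recovered reads instead shifts every log2 fold change by -0.80. Of 5 promyelocyte granule markers, ELANE and CTSG were at 0 FPKM in both control libraries, MPO was at 0.0246 and 0, and the summed level of the list was 2.44 to 2.81 in the control group and 23.4 to 25.6 in the treated group. The 6 erythroid markers summed to 271 to 280 in the control group and 253 to 299 in the treated group, but they went both ways. By the thresholds given below, 3 of them fell and 3 rose. GATA1 was at 124 and 122 FPKM in the control group and at 15.1 and 12.5 in the treated group. HBG1 was at 42.3 and 44.8 FPKM in the control group and at 154 and 123 in the treated group. Summed levels were 0.936 to 0.95 and 22.1 to 23.7 for 4 lymphoid markers, and 0.472 to 0.485 and 3.84 to 5.22 for 4 megakaryocyte markers. Of the other granule markers, PRTN3 was at 0.341 and 0.710 FPKM and AZU1 at 2.07 and 2.10 in the control group. In the treated group MPO was at 11.8 and 11.3 and AZU1 at 12.6 and 10.9, while CTSG stayed at 0. MPO, ELANE and CTSG, though not AZU1, were thus at or near 0 in the control libraries of a line labelled promyelocytic. The part of these differences in the results below was not tested. In bulk RNA, fewer cells of a type and less RNA per cell cannot be told apart.

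The subunits of the 3 enzymes did not move as a block. Every one of the 18 genes private to Pol I or Pol III, the Pol I factors included, had its 2 treated values below its 2 control values, and 11 of them fell by the thresholds of the study (unadjusted P under 0.05 and a fold change under 0.5 in the limma fit, two-sided). Subunits of Pol II and those shared by all of the enzymes went both ways, with 5 of 12 that rose (fold change over 2) and 2 that fell. Over all 32 genes, 13 (40.6%) fell, against 24.9% of the 16668 genes tested and 31.7% of the 10996 protein-coding ones. A further 6 (18.8%) rose, against 33.6% of all tested genes and 24% of the protein-coding ones. The groups did not overlap for 30 of the 32 genes, but this was so for 89.1% of all tested genes. The log2 fold change was below 0 for 21 of the 32 genes, against 46.7% of all tested genes and 56.7% of protein-coding ones. The median log2 fold change was -0.83 over the 32 genes, 0.17 over all tested genes and -0.29 over protein-coding genes.

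**Figure D1:**
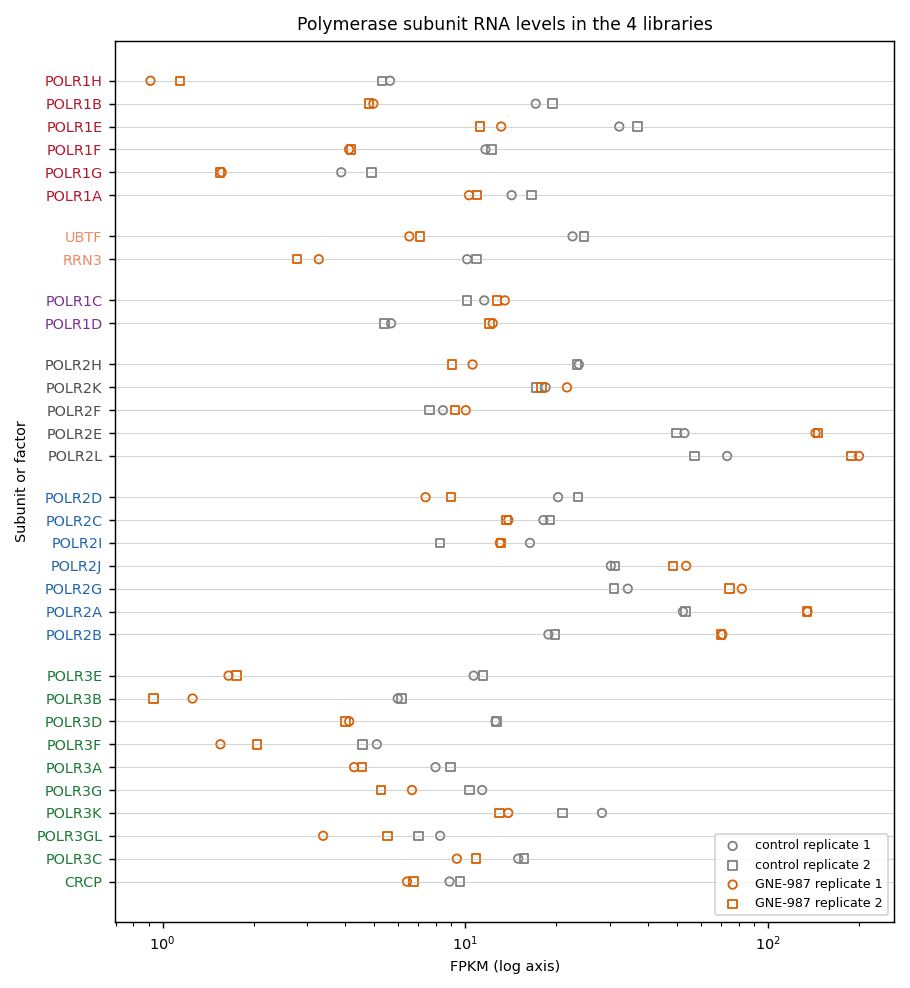
RNA level of each of the 32 genes in the 4 libraries, in FPKM on a log axis, with control libraries in grey and GNE-987 libraries in orange, circles for replicate 1 and squares for replicate 2. Names are coloured by enzyme. In the red, light orange and green rows, which are private to Pol I, Pol I factors and private to Pol III, both orange points lie left of both grey points, while POLR2A, POLR2B, POLR2E, POLR2G, POLR2L and POLR1D have both orange points to the right by more than 2-fold.

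Pol I lost RNA for 5 of its 6 private subunits (83.3%) and for both factors, against 31.7% of protein-coding genes that fell. The largest fall was that of POLR1H (chromosome 6, 30058899 to 30064909, plus strand, GRCh38), the small subunit used for RNA cleavage by the enzyme, at 5.64 and 5.31 FPKM in the control group and 0.912 and 1.14 in the treated group. This is 18.8% of the control mean, with a log2 fold change of -2.31 ± 0.15 (SE, n = 2 per group, limma adjusted P = 0.000585). The treated values rest on 28 and 37 recovered reads, so the treated level is the least precise among the private Pol I genes. The span of POLR1H shares 2742 bases with that of POLR1HASP on the opposite strand, itself at 0.931 and 1.03 FPKM against 0.361 and 0.336. POLR1B (chromosome 2, 112541915 to 112579818, plus strand), the second largest catalytic subunit, went from 17.1 and 19.4 FPKM to 4.97 and 4.80. Its log2 fold change was -1.88 ± 0.09 (limma adjusted P = 0.000318), and the treated mean was 26.8% of the control mean.

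The remaining falls in Pol I were close in size. POLR1E and POLR1G, which form a heterodimer that aids initiation and elongation, were at 32.3 and 37.1 FPKM against 13.1 and 11.2 for POLR1E. The values for POLR1G were 3.89 and 4.90 against 1.57 and 1.55. POLR1F, the stalk subunit that contacts RRN3, was at 11.7 and 12.2 against 4.13 and 4.20. The log2 fold changes, -1.51, -1.43 and -1.50, differed by less than the SE of POLR1G (0.15). RRN3 was at 10.1 and 10.9 FPKM in the control group and 3.28 and 2.78 in the treated group, a log2 fold change of -1.76 ± 0.11, and UBTF at 22.6 and 24.7 against 6.53 and 7.10, a log2 fold change of -1.78 ± 0.08. Both factors therefore stood at 28.8% of their control means. The span of RRN3 shares 34279 bases with that of PDXDC1 on the opposite strand. The counting is not stated to use strand, and how far their exons overlap was not tested. PDXDC1 was itself at 6.32 and 6.38 FPKM against 4.07 and 4.13. RRN3P3, a copy of RRN3, was at 1.55 and 1.46 FPKM against 0.213 and 0.168. The span of POLR1G shares 3404 bases with that of ERCC1 on the opposite strand. ERCC1 was at 4.86 and 5.20 FPKM against 6.39 and 5.30, and its part in the POLR1G values was not tested.

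The exception was the largest subunit. POLR1A, which carries part of the Pol I active site, was at 14.2 and 16.5 FPKM in the control group and 10.3 and 10.9 in the treated group. The groups did not overlap, but the log2 fold change of -0.53 ± 0.10 did not reach a fold change of 0.5. The ratio of POLR1A to POLR1B within a library was 0.833 and 0.853 in the control group and 2.07 and 2.28 in the treated group, a log2 difference of 1.37 with a pooled SD of 0.07. An exact permutation test of 2 against 2 libraries cannot give a two-sided P below 0.333, so this and the other ratios are given with their spread and no test.

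All 10 Pol III genes were below their control values in both treated libraries, and 4 (40%) fell past the threshold. The share that fell was near the 31.7% of protein-coding genes. Groups did not overlap, in either direction, for 89.1% of all tested genes. The log2 fold change was below 0 for 46.7% of all tested genes and 56.7% of protein-coding ones. POLR3E (chromosome 16, 22297375 to 22335101, plus strand), which pairs with POLR3D in a subcomplex used in initiation and termination, had the largest fall of the 32 genes. It was at 10.7 and 11.5 FPKM in the control group and 1.65 and 1.76 in the treated group, 15.4% of the control mean. Its log2 fold change was -2.63 ± 0.09 (limma adjusted P = 0.000195), and recovered reads were 2328 and 2404 against 131 and 147. POLR3D went from 12.6 and 12.7 FPKM to 4.14 and 4.02, a log2 fold change of -1.61 ± 0.06. The partners thus fell unequally, with a POLR3E to POLR3D ratio of 0.847 and 0.903 in the control group and 0.399 and 0.437 in the treated group.

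POLR3B (chromosome 12, 106357748 to 106510198, plus strand), the second largest catalytic subunit, was at 5.98 and 6.16 FPKM in the control group and 1.26 and 0.933 in the treated group. The log2 fold change was -2.38 ± 0.17, and its treated values rest on 51 and 40 recovered reads. As in Pol I, the largest subunit had the smaller change. POLR3A was at 7.97 and 8.92 FPKM against 4.29 and 4.55, a log2 fold change of -0.92 ± 0.09 that did not reach a fold change of 0.5. The ratio of POLR3A to POLR3B was 1.33 and 1.45 in the control group and 3.42 and 4.88 in the treated group.

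The heterotrimer that opens the Pol III promoter is made of POLR3C, POLR3F and either POLR3G or its paralog POLR3GL. POLR3F fell, from 5.10 and 4.57 FPKM to 1.55 and 2.05, a log2 fold change of -1.39 ± 0.17. POLR3C was at 14.96 and 15.6 FPKM against 9.38 and 10.8, and did not pass. Of the alternative subunits, POLR3G was at 11.4 and 10.3 FPKM against 6.67 and 5.27, and POLR3GL was at 8.26 and 7.01 against 3.39 and 5.54. Neither passed the fold change threshold, and the POLR3G to POLR3GL ratio overlapped between groups, at 1.38 and 1.47 in the control group and 1.97 and 0.951 in the treated group. The log2 fold changes were -0.86 ± 0.14 for POLR3G and -0.80 ± 0.27 for POLR3GL, and the log2 ratio changed by -0.06 with a pooled SD of 0.53, so a difference between the paralogs was not detectable at this spread. The small subunits POLR3K, at 28.3 and 21.0 FPKM against 13.9 and 13.0, and CRCP, at 8.87 and 9.62 against 6.42 and 6.75, had log2 fold changes of -0.86 and -0.48 and did not pass.

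The private subunits of Pol II went both ways, and its largest subunits, POLR2A and POLR2B, both rose. POLR2B (chromosome 4, 56977722 to 57031158, plus strand), the second largest subunit, had the largest rise of the 32 genes, from 18.8 and 19.8 FPKM to 70.7 and 70.1. The log2 fold change was 1.86 ± 0.05 (limma adjusted P = 0.000142), and the treated mean was 365% of the control mean. POLR2A (chromosome 17, 7484366 to 7514616, plus strand), the largest subunit, whose C-terminal repeat domain is phosphorylated during transcription, was at 52.4 and 53.3 FPKM in the control group and 135.0 and 134.5 in the treated group. Its log2 fold change was 1.35 ± 0.04 (limma adjusted P = 0.000155).

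The stalk of Pol II is made of POLR2D and POLR2G, and these moved in opposite directions. POLR2G rose, from 34.4 and 31.0 FPKM to 82.0 and 74.5, a log2 fold change of 1.26 ± 0.08. POLR2D fell, from 20.3 and 23.5 FPKM to 7.39 and 8.98, a log2 fold change of -1.41 ± 0.14. The POLR2G to POLR2D ratio was 1.70 and 1.32 in the control group and 11.1 and 8.30 in the treated group. POLR2C and POLR2J, the assembly pair of Pol II, were at 18.1 and 19.0 against 13.9 and 13.7 FPKM and at 30.3 and 31.2 against 53.7 and 48.5. Neither reached the fold change threshold, with log2 fold changes of -0.43 ± 0.05 and 0.73 ± 0.07. Reads of POLR2J could have been split with its near-identical copies POLR2J2 and POLR2J3, so its level is uncertain. POLR2I, the small subunit at the catalytic cleft, was at 16.4 and 8.26 FPKM in the control group and 13.0 and 13.1 in the treated group, and the groups overlapped. Its direction rested on 1 library, since the log2 fold change of 0.17 became -0.32 without control replicate 2. POLR2I also overlaps TBCB and OVOL3 on the opposite strand, and OVOL3 was at 0.0581 and 0.182 FPKM against 18.7 and 23.4.

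The shared subunits covered nearly the whole range seen in Pol II. POLR2E, which all of the enzymes use, rose from 53.0 and 49.9 FPKM to 144 and 146, a log2 fold change of 1.49 ± 0.05. POLR2L, a zinc-binding subunit of the assembly platform, rose from 73.3 and 57.2 FPKM to 199.8 and 189, a log2 fold change of 1.58 ± 0.14. It had the highest FPKM of the 32 genes in both groups, and overlaps CD151 on the opposite strand, itself at 21.7 and 19.99 FPKM against 44.8 and 43.7. POLR2H fell, from 23.7 and 23.4 FPKM to 10.6 and 9.04, a log2 fold change of -1.26 ± 0.09. POLR2F was at 8.44 and 7.61 FPKM against 10.04 and 9.25, and POLR2K at 18.4 and 17.2 against 21.7 and 17.9, and neither passed. For POLR2K the groups overlapped. The ratio of POLR2E to POLR2H, which belong to all of the enzymes, was 2.23 and 2.13 in the control group and 13.6 and 16.2 in the treated group.

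The subunits shared by Pol I and Pol III form the assembly pair of those enzymes and lay apart from the private ones. POLR1D rose from 5.69 and 5.40 FPKM to 12.3 and 12.0, a log2 fold change of 1.12 ± 0.06. POLR1C was at 11.6 and 10.1 FPKM against 13.5 and 12.7, a log2 fold change of 0.27 ± 0.09 that did not pass. The ratio of POLR1D to POLR1C was 0.492 and 0.532 in the control group and 0.912 and 0.945 in the treated group. By recovered reads, POLR1D had 1468 and 1339 and POLR1C 1476 and 1245 in the control group, against 1155 and 1189 and against 627 and 623 in the treated group. POLR1C overlaps XPO5 and YIPF3 on the opposite strand.

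**Figure D2:**
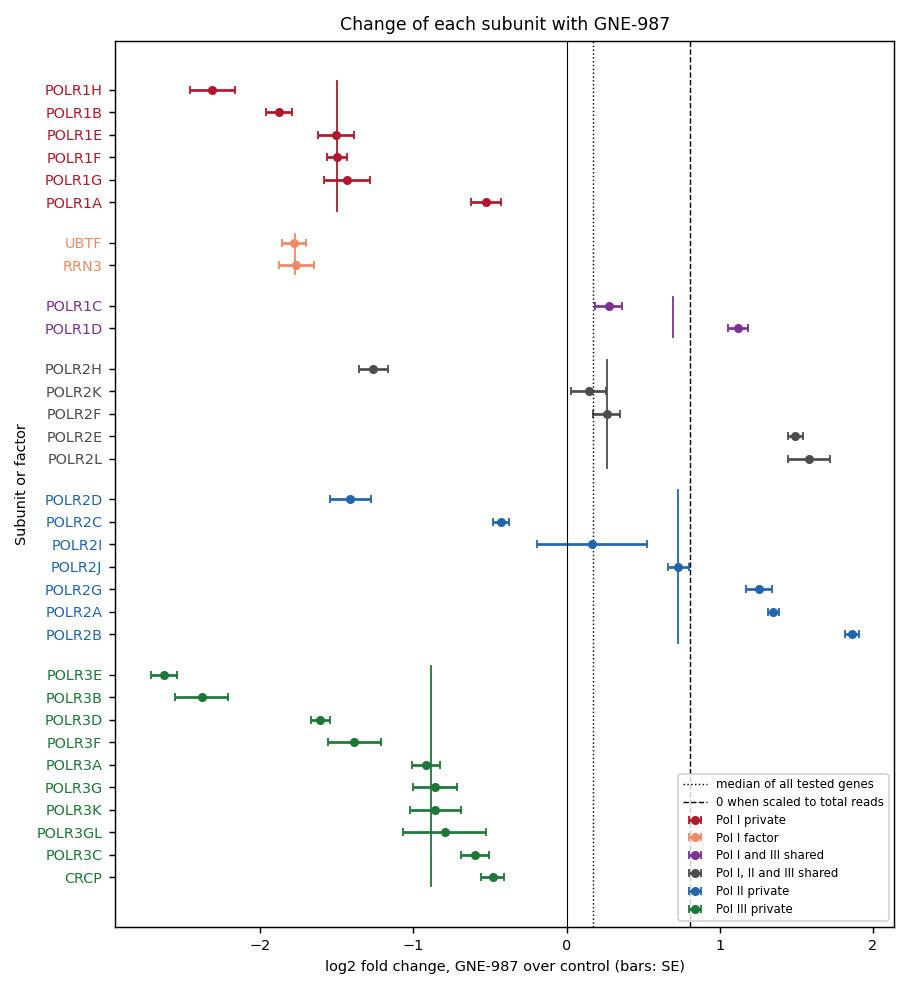
Log2 fold change (GNE-987 over control) of each gene with its SE, coloured by enzyme, with short vertical lines at the median of each class. The dotted line is the median of all tested genes (0.17), and the dashed line is where 0 would lie if libraries were scaled to total recovered reads. All red, light orange and green points lie left of 0, whereas blue and grey points lie on both sides.

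The promoters of these genes were searched for short motifs in RefSeq windows of 250 bases before and 50 after the start (GRCh38.p14), which held 24 of the 32 genes in 32 windows. The E-box CACGTG, the letters bound by MYC with MAX and by other bHLH factors, was searched on both strands and lay in 4 of these windows (12.5%), those of POLR1G, POLR3A, POLR3C and POLR3E, against 7.26% of all 35116 windows. All 4 are private to Pol I or Pol III, to which 6 and 10 of all 32 genes belong, the 8 genes without a window included. POLR1G and POLR3E fell past the threshold, as did 40.6% of all 32 genes, with or without a window. Whether the E-box goes with the change was not tested. The letters are shown with 10 bases on either side, the E-box in capitals, to let the sites be compared, each read along the strand of the gene. Positions count from 0 at the start, and the E-box begins at -12 in POLR1G, -35 in POLR3A, -196 in POLR3C and -1 in POLR3E.
POLR1G (chr19:45406622-45406647, plus strand): cctttggatcCACGTGgtctgcaacc
POLR3A (chr10:78029535-78029560, minus strand): aggaagcggaCACGTGggacactcta
POLR3C (chr1:145823994-145824019, plus strand): ccgcgtcggtCACGTGagttggccag
POLR3E (chr16:22297398-22297423, plus strand): cgctccccccCACGTGtccgccggag
Outside the core letters the flanks differ between the 4 genes. The ETS core CCGGAAG lay in 11 of the 32 windows (34.4%, against 10.3% of all windows), from 8 genes, namely POLR1B, POLR1C, POLR2C, POLR2D, POLR2F, POLR3A, POLR3C and RRN3, which take in genes that fell and genes that did not. The NRF1 core GCATGCGC lay in 4 windows (12.5%, against 3.05%), from 3 genes, POLR2F, POLR2H and POLR3B, and TATAAA lay in 0 windows, against 11.5% of all windows. A match is a description of the letters and not a bound site.

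The 250 bases before the start are given for the largest subunits of Pol III and Pol II, whose log2 fold changes lay on opposite sides of 0, with any of the 4 motifs in capitals. POLR3A holds the ETS core and then the E-box, and POLR2A holds none of the 4.
POLR3A (chr10:78029516-78029765, minus strand): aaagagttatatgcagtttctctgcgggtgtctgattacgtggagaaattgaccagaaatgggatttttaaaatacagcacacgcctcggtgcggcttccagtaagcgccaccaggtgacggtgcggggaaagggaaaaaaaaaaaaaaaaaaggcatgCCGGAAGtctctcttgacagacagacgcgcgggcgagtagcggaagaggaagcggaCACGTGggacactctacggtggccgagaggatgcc
POLR2A (chr17:7484116-7484365, plus strand): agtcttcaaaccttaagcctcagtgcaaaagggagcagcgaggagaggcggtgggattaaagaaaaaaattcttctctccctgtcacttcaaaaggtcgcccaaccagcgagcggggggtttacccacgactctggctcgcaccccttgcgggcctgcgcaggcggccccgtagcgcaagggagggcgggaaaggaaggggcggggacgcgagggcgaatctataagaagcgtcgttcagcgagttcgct
The stretch is 52.0% G and C in POLR3A and 59.6% in POLR2A.

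Shared subunits were compared with private ones within each library, as the mean of log2(FPKM + 0.1) over the 5 subunits of all the enzymes minus the mean over the 23 private subunits. This difference was 0.97 and 0.84 in the control group and 2.22 and 2.06 in the treated group, a change of 1.23 with a pooled SD of 0.11. Splitting the private subunits by enzyme showed where the change lay. The shared mean minus the Pol II private mean was 0.11 and 0.07 in the control group and 0.09 and -0.03 in the treated group, a change of -0.06 that is smaller than the pooled SD of 0.07. The Pol II private mean minus the Pol I private mean went from 1.15 and 0.90 to 3.06 and 3.04, a change of 2.03 with a pooled SD of 0.13. The corresponding difference between Pol II and Pol III was 1.29 and 1.24 in the control group and 3.06 and 2.99 in the treated group, a change of 1.75 with a pooled SD of 0.04. Pol I and Pol III private means differed from each other by 0.15 and 0.34 in the control group and by -0.003 and -0.05 in the treated group, a change of -0.27 with a pooled SD of 0.10. Class medians of the log2 fold change were -1.50 for Pol I, -1.77 for the Pol I factors, -0.89 for Pol III, 0.73 for Pol II, 0.26 for the subunits of all the enzymes and 0.70 for those of Pol I and Pol III.

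Ratios within a library do not depend on how libraries were scaled. Their level depends on the gene lengths behind the FPKM values, so the change between groups is what can be read. The ratio of POLR2B to POLR1B was 1.10 and 1.02 in the control group and 14.2 and 14.6 in the treated group. The ratio of POLR2B to POLR3B was 3.15 and 3.21 against 56.3 and 75.1, the largest shift among the pairs of counterparts compared. For the largest subunits, POLR2A to POLR1A was 3.68 and 3.22 against 13.1 and 12.3, and POLR2A to POLR3A was 6.57 and 5.98 against 31.5 and 29.6. None of these ratios overlapped between groups. The ratio of POLR2A to POLR2B went from 2.78 and 2.70 to 1.91 and 1.92. The ratio of the largest to the second largest subunit was thus lower in the treated group for Pol II and higher for Pol I and Pol III.

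**Figure D3:**
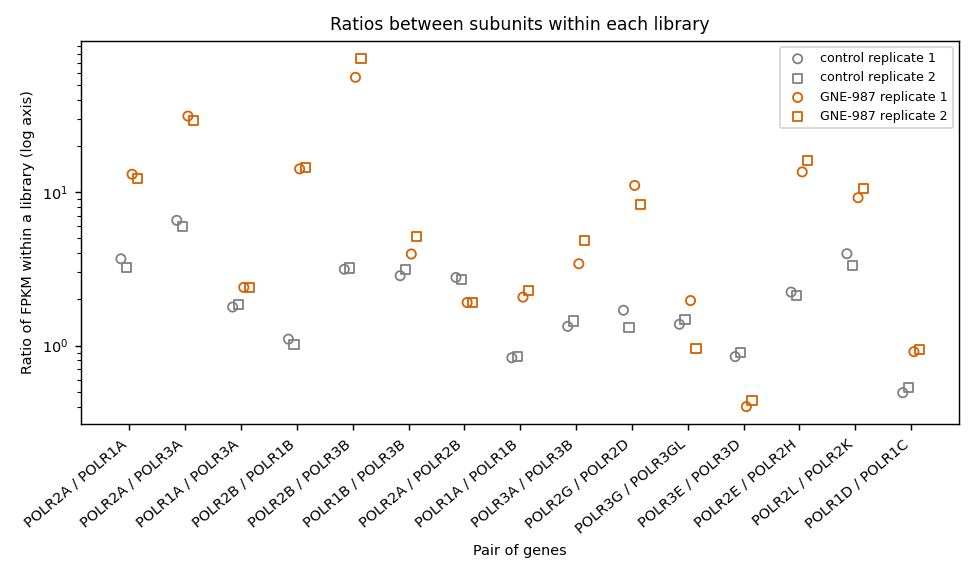
Ratio of FPKM between pairs of genes within each library, on a log axis, with control libraries in grey and GNE-987 libraries in orange. The ratio of POLR2B to POLR3B moves from 3.15 and 3.21 to 56.3 and 75.1, while that of POLR3G to POLR3GL overlaps between groups.

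The scaling of the libraries decided how many Pol II and shared subunits counted as higher. When libraries were scaled to total recovered reads, 1 of the 32 genes, POLR2B, remained higher (log2 fold change 1.06) and 21 were lower. In that scaling all 18 Pol I, Pol III and Pol I factor genes fell, with class medians of -2.30 for Pol I and -1.68 for Pol III, and the Pol II and all-enzyme medians became -0.07 and -0.53. The median of all tested genes was then -0.73, so relative to it the medians were -1.57 for Pol I, -0.96 for Pol III, 0.65 for Pol II and 0.19 for the shared subunits. Over all tested genes, the same change of scaling turned 5602 higher and 4148 lower into 3734 higher and 6930 lower. Quantile normalization left POLR2B and POLR1D as the higher genes, and 4235 higher and 5464 lower over all tested genes.

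Genes that work with the polymerases were followed in lists of 55 tested genes, of which 20 (36.4%) fell and 3 (5.45%) rose. The shares over all tested genes were 24.9% and 33.6%, and over protein-coding genes 31.7% and 24%, so the share that fell was close to that of protein-coding genes. Of 7 Pol I promoter and termination factors, 4 fell and 0 rose. TAF1A, a subunit of the SL1 complex that recruits Pol I, had the largest fall, from 3.32 and 4.01 FPKM to 0.620 and 0.509, a log2 fold change of -2.50 ± 0.18 (limma adjusted P = 0.000776). The median of the 7 was -1.14, beside -1.50 for the private Pol I subunits and -1.77 for RRN3 and UBTF, and 1 of the 7 lay above 0.

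Of 17 Pol II general transcription factors tested, 6 (35.3%) fell and 0 rose, with a median log2 fold change of -0.70. The share that fell was near the 31.7% of protein-coding genes. ERCC3, the TFIIH helicase that opens the promoter, had the largest fall, from 9.96 and 10.7 FPKM to 2.61 and 2.69, a log2 fold change of -1.92 ± 0.08. Of 10 assembly and import factors, 3 (30%) fell and 0 rose, and the share that fell lay between the 24.9% of all tested genes and the 31.7% of protein-coding ones. RPAP3, a partner of the chaperones that assemble Pol II, had the largest fall, from 10.6 and 11.9 FPKM to 4.38 and 3.43.

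Pol III factors went both ways, with 6 of 17 (35.3%) that fell and 2 (11.8%) that rose, against 31.7% and 24% of protein-coding genes. GTF3C2, a subunit of TFIIIC, which binds the internal promoter of transfer RNA genes, had the largest fall, from 13.7 and 13.4 FPKM to 3.73 and 3.09. SNAPC5, a subunit of the complex that starts small nuclear RNA genes of both Pol II and Pol III, had the largest rise, from 7.22 and 5.46 FPKM to 43.7 and 49.99, a log2 fold change of 2.88 ± 0.17. Its partner SNAPC4, named after its values were seen, was the other gene that rose, from 9.71 and 10.4 FPKM to 67.2 and 68.7. Among copies and namesakes of Pol II subunits, POLR2J4, a noncoding copy of POLR2J, rose from 0.120 and 0.132 FPKM to 3.15 and 3.39, and POLR2M, which encodes a Pol II-associated protein and no subunit, fell from 2.46 and 2.19 to 0.473 and 0.431.

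**Figure D4:**
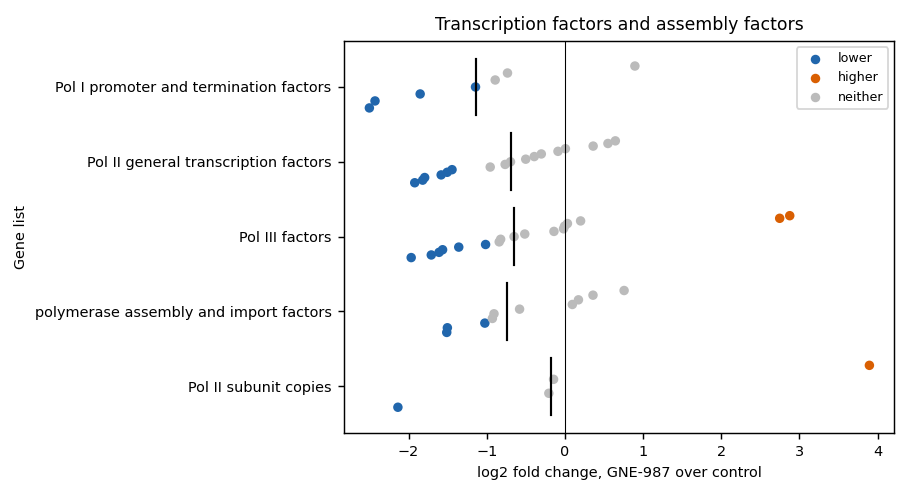
Log2 fold change (GNE-987 over control) of the 55 tested genes that work with the polymerases or copy a Pol II subunit, one row per list, with blue points for genes that fell, orange for genes that rose, grey for neither and a black line at the median. The medians of all 5 lists lie left of 0, and the 3 orange points are SNAPC4, SNAPC5 and POLR2J4.

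Gene length moved with the change in part. Across the 32 genes, Spearman's rho between canonical transcript length and log2 fold change was -0.39, and across the 10996 protein-coding genes it was -0.21. Across the 23 private subunits it was -0.25, and 0.03 for the number of exons in place of length. Genes share the 4 libraries, so these are descriptions across genes. The 7 genes with a canonical transcript under 1000 bases had a median log2 fold change of 0.73, and 3 of them rose and 1 fell. The 13 genes over 3500 bases had a median of -1.50, and 8 fell and 2 rose. Over protein-coding genes of any length, 31.7% fell and 24% rose. The long POLR2A and POLR2B rose and the short POLR1H fell, and the part of length in the class differences was not tested.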

How the data were processed

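RNA-seq libraries were made by the study from total RNA with a TruSeq kit. The submitters' processing notes name HISAT2 2.0.5 and hg38, and the counting program and annotation are not given in the sources used here. The authors deposited FPKM values per gene and library, scaled by gene length and library. Dose and time came from the study's figure legends and the groups from the labels.

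Identifiers were joined to GENCODE release 44 (58207 of 58735), and promoter windows came from RefSeq. A pseudocount of 0.1 FPKM was added before taking log2, and the 16668 genes averaging 0.5 FPKM or more over the libraries were fitted with limma 3.58.1 in R 4.3.3 (intensity trend, no block). Calls needed an unadjusted P under 0.05 with a treated to control ratio either above 2 or below 0.5, and adjusted P values are Benjamini-Hochberg over all tested genes. Since the values are FPKM, no count test was the main test. The members and gene lists were chosen with earlier results of these data known. Named genes were all 32 members and the largest rise and fall in each other list among called genes averaging 1 FPKM or more, and 1 further gene under the rule is not reported here.

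Whole reads were recovered from the steps of FPKM. At GENCODE exon lengths 53.0% of 32895 genes came out whole within 0.01 of a read in all libraries, and 15463 others did so at another length, so reads per gene are estimates. Depth limits the low values of the GNE-987 libraries. Same-numbered libraries showed a correlation of 0.01 between their deviations from group means, so replicates were not paired. The alternatives were pseudocounts, filters, scalings, thresholds, limma-voom on recovered reads, the replicate block and leaving out each library.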

Additional observations from a re-analysis of the deposited data

How the results depend on the processing

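Under all 15 alternatives the 18 genes private to Pol I or Pol III, with the Pol I factors, kept a negative log2 fold change, and 11 to 18 of them were called lower. Many of the alternatives could not turn a negative sign. Filters, thresholds and the replicate block leave these log2 fold changes as they were, and scaling to total reads and limma-voom lower them. Both treated values lay below both control values for all 18, so no pseudocount and no left-out library could turn the sign. It could turn only under quantile normalization and median-ratio scaling of the FPKM values (genes averaging 0.5 FPKM or more). For 14 of the 32 genes both direction and call held under every alternative, 5 changed direction, 5 lost a call and 8 gained one. Limma-voom on recovered reads and scaling to their total each gave 21 lower and 1 higher gene, against 13 and 6. Directions then turned for POLR1C (-0.53 and -0.52), POLR2F (-0.54 and -0.53), POLR2K (-0.66 and -0.66), POLR2I (-0.64 and -0.63) and POLR2J (-0.0735 and -0.0730), each given for limma-voom and then for scaling to the total. Both follow from the shift of all fold changes by -0.80. Limma-voom gave 4286 higher and 6837 lower over all genes.

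Quantile normalization left 2 higher genes. The shared minus private change was then 1.08, and the Pol II minus Pol III private change was 1.56. With a pseudocount of 1, which shrinks low values, these were 1.08 and 1.55, and the Pol II minus Pol I private change was 1.79. The replicate block gave 13 lower and 6 higher genes, 5667 higher and 4186 lower over all genes, and changed no call of the 32, and the numbers pair nothing by the labels.

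Leaving out each library in turn gave 13 to 14 lower genes and 6 higher ones, a shared minus private change of 1.15 to 1.32, Pol II minus Pol I of 1.90 to 2.15 and Pol II minus Pol III of 1.72 to 1.79. POLR2I ranged from -0.32 to 0.65. POLR3K became lower without control replicate 2, POLR3G without GNE-987 replicate 1 and POLR3GL without GNE-987 replicate 2. In those fits a lone library is assumed to vary like the other group. Depth limits the treated values of POLR1H, POLR3F and POLR3B most.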

Other observations

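Transcripts made by Pol III were looked up after the values of the series were known. Of 11 such genes in the table, RMRP, RPPH1, RN7SK, RN7SL1, RNY1 and RNY4 were listed at 0 in all 4 libraries, genes that most cells transcribe strongly, so their values say nothing of Pol III activity here. RN7SL2, the RNA of the signal recognition particle, was at 787 and 291 FPKM in the control group and 1123 and 1345 in the treated group, a log2 fold change of 1.36 that did not pass the threshold, and the control libraries differed from each other by more than the treated ones. The vault RNA VTRNA1-1 was at 0.439 and 0 FPKM in the control group and 9.67 and 16.0 in the treated group, on 1 and 0 recovered reads against 8 and 14. VTRNA1-2 and VTRNA1-3 were at 0 in both control libraries, on 3 and 5 reads and on 2 and 6 reads in the treated group. These transcripts are short and few reads lie behind them.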
